A study of Homo sapiens with 18 samples.

Results

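A set of 6 serpin genes were followed in C4-2B prostate cancer cells treated with an AURKA inhibitor, a PARP inhibitor or both. They were SERPINB1, SERPINB5, SERPINB6, SERPINB8, SERPINB9 and SERPINE2, which is 6 of the 23154 genes counted at either time point. The set was chosen by the measured level of SERPINB5, which was much higher under olaparib than under vehicle at 7 days, so that difference is described here without a test. C4-2B is an androgen-independent human line derived from LNCaP, labelled WT in every sample, and all 18 libraries came from this line. At 2 days, 3 libraries came from vehicle-treated (DMSO) cells and 3 from cells given VIC-1911, the AURKA inhibitor, at 0.1 μM. At 7 days, 3 libraries came from vehicle, 3 from VIC-1911 at 0.1 μM, 3 from olaparib, the PARP inhibitor, at 1 μM, and 3 from the combination at those same concentrations. Sources that separate cultures from technical repeats were not given, so p-values measure the spread between these libraries, which may be technical. At 7 days the vehicle and VIC-1911 libraries carry one run of library numbers and the olaparib and combination libraries another, so that numbering and olaparib cannot be told apart. VIC-1911 against vehicle and combination against olaparib each stayed within one run of numbers.

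Serpins are a family of proteins that mostly trap serine proteases: the protease cuts an exposed loop of the serpin, the serpin refolds, and both stay bound in an inactive complex. Clade B serpins lack a classical secretion signal and act largely inside cells, whereas SERPINE2 (protease nexin-1) is secreted and inhibits thrombin and urokinase at the cell surface. SERPINB5 (maspin) does not inhibit proteases, was described as a tumor suppressor of mammary and prostate epithelium, and is a known transcriptional target of p53. SERPINB6 inhibits cathepsin G and related proteases, SERPINB8 inhibits furin, SERPINB1 inhibits neutrophil elastase, and SERPINB9 inhibits granzyme B in cytotoxic cells and their targets.

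SERPINB5 lies on the plus strand of GRCh38 at chr18:63476958-63505085 and SERPINB8 on the same strand at chr18:63970081-64019779. A lncRNA of 418 bases and a pseudogene of 412 bases are annotated on the same strand within the span of SERPINB5. SERPINE2 lies on the minus strand at chr2:223975045-224039286. SERPINB1 (chr6:2832332-2841863), SERPINB9 (chr6:2887270-2903309) and SERPINB6 (chr6:2948159-2971793) are all on the minus strand. The 250 bases before the start of SERPINB5, and before each of the 2 starts of SERPINE2 in the RefSeq table, are shown because these were the members with the widest range between treatments and because p53 is a known regulator of SERPINB5. Each was read 5′ to 3′ on the strand of its gene, and capitals mark CATG, which reads the same on both strands and forms the core of many p53 half-sites.
SERPINB5, chr18:63476708-63476957, plus strand: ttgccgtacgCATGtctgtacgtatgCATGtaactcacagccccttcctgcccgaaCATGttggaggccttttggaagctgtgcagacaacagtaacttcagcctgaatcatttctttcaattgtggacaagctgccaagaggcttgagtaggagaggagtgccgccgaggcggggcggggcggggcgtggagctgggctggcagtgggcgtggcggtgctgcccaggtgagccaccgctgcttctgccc
SERPINE2, chr2:224031479-224031728, minus strand: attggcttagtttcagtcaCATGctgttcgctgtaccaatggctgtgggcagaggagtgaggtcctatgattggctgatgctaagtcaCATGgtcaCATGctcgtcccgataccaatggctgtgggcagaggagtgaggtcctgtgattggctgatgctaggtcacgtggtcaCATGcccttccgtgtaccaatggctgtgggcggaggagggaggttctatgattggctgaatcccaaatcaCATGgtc
SERPINE2, chr2:224038641-224038890, minus strand: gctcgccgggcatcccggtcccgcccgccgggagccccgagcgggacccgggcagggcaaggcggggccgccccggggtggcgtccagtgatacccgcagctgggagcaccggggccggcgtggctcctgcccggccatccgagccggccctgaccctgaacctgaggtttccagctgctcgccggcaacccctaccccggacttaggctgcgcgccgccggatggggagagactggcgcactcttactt
The SERPINB5 window held CATG at 3 places, 1 of them inside ACATGT. The first SERPINE2 window held CATG at 5 places and the second at 0. CATG was found in 47.6% of 35116 RefSeq windows of this length and ACATGT in 3.6%. An exact p53 half-site, searched on both strands, was found in 5.57% of the windows and in 0 of the 3 printed here. Around CATG in the SERPINB5 window, the stretches acgCATGtct and gaaCATGttg each miss that pattern at 1 base. Near matches of this kind were not counted over all windows. The second SERPINE2 window had a GC content of 75.2% with 28 CG dinucleotides, the first 53.2% with 6, and the SERPINB5 window 60% with 13, against medians of 58% and 11 over all windows. These matches describe letters and were not tested for binding.

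Total counts ranged from 3245273 to 7184420 per library at 2 days and from 4967931 to 19684208 at 7 days, the lowest of the latter being olaparib replicate 1. All 12 luminal prostate markers were above 1 FPKM (fragments per kilobase of transcript, scaled to library size) in every library. PTPRC, a leukocyte marker, had at most 2 counts in any library, and TP63, which defines basal cells, had at most 1. The summed level of 11 immune and stromal markers was 8.29 to 9.06 FPKM under vehicle, 9.62 to 10.0 under VIC-1911, 10.6 to 12.6 under olaparib and, under the combination, 11.9 to 13.1 at 7 days, with 2 of the 11 above 1 FPKM in every library. The 2 were CD68 and COL1A1, which made up most of the sum in these libraries of a single cell line. At 7 days CD68 averaged 6.40 FPKM under vehicle, 7.67 under VIC-1911, 9.01 under olaparib and 9.76 under the combination. COL1A1 averaged 1.54, 1.38, 1.96 and 2.07 FPKM in the same order. Whether these 2 genes bear on the serpin results was not tested. In these bulk samples, fewer cells making a transcript and less of it per cell cannot be told apart.

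SERPINB5 was barely detected under vehicle and reached its highest levels wherever olaparib was present. At 7 days the 3 vehicle libraries held 0.179, 0.0837 and 0.0430 FPKM, from 9, 5 and 1 counts. The 3 VIC-1911 libraries held 0.660, 0.331 and 0.628 FPKM, from 22, 14 and 33 counts. All VIC-1911 libraries were above all vehicle libraries, as they were for 33.9% of genes compared. The 3 olaparib libraries held 2.15, 2.32 and 2.53 FPKM, from 37, 135 and 171 counts, and the 3 combination libraries 2.36, 2.76 and 3.05 FPKM, from 143, 110 and 160 counts. Both olaparib-containing groups stood above every vehicle library, and they overlapped each other. Of all genes compared, 31.9% had all olaparib libraries above all vehicle libraries, and 30.1% had all combination libraries above them. The shallow olaparib replicate 1 gave the lowest value of its group.

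**Figure D1:**
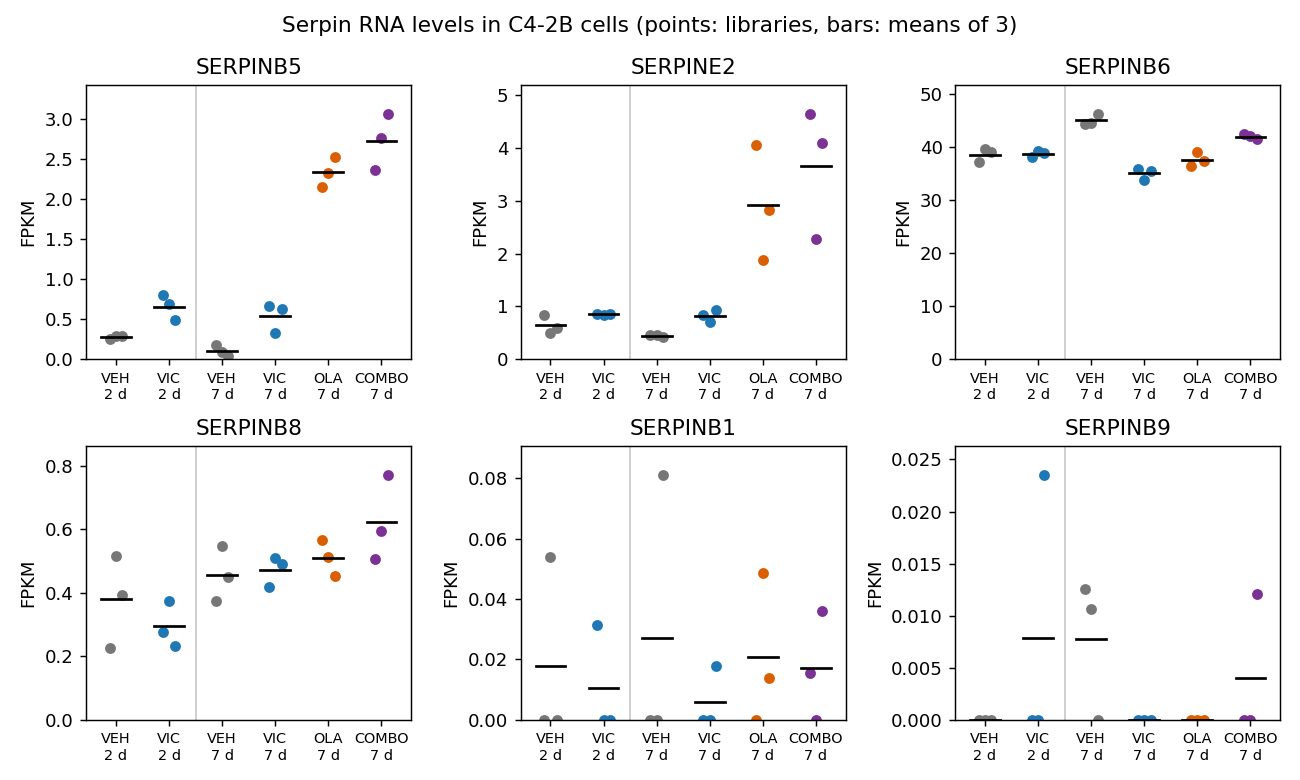
FPKM of each member (vertical axis, starting at 0, with its own scale per gene) in all 18 libraries by group; points are libraries and bars are means of 3. SERPINB5 and SERPINE2 were highest in the olaparib and combination groups, SERPINB6 stayed between 33.9 and 46.2 FPKM, and SERPINB1 and SERPINB9 were near 0.

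The mean level of SERPINB5 at 7 days was 0.102 ± 0.0696 FPKM (SD, n = 3) under vehicle, 0.540 ± 0.182 under VIC-1911, 2.33 ± 0.191 with olaparib and 2.72 ± 0.350 with both drugs. As a description, the olaparib mean was 22.9 times, the combination mean 26.8 times and the VIC-1911 mean 5.30 times the vehicle mean, 3 ratios that share the same vehicle libraries and rest on 15 vehicle counts in all. Without vehicle replicate 1, the highest of its group, the ratios became 36.8, 43.0 and 8.52. In the fit over all genes the olaparib difference was 4.35 on the log2 scale, rank 9 of 14409 genes from the highest, in a comparison where 28.1% of genes were called higher, and it was 4.96 without vehicle replicate 1. The fitted difference was 2.19 for VIC-1911 and 4.56 for the combination. Between the combination and olaparib the fitted difference was 0.21, and the mean FPKM differed 1.17 times.

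Combination against VIC-1911 asks what olaparib added to AURKA inhibition, and it uses no library of the difference that chose SERPINB5. SERPINB5 rose by a log2 fold change of 2.37 (SE 0.20, 95% interval 1.96 to 2.78, adjusted p = 9.74e-11, edgeR quasi-likelihood test), with all 3 combination libraries above all 3 VIC-1911 libraries, as for 20.8% of genes compared. SERPINE2 rose by a log2 fold change of 2.22 (SE 0.23, adjusted p = 5.38e-09). SERPINB6 rose by 0.30 (SE 0.04, adjusted p = 2.49e-06), a smaller change in a gene with many more counts. SERPINB8 was 0.42 higher with an interval of -0.04 to 0.88 (adjusted p = 0.134) and did not pass. Thus 3 of the 4 members tested were higher and 0 lower, where 20.7% of 14409 genes were higher and 22.2% lower. SERPINB5 and SERPINE2 also passed a 2-fold limit, which 2.23% of genes passed upward. This comparison crosses the 2 runs of library numbers.

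**Figure D2:**
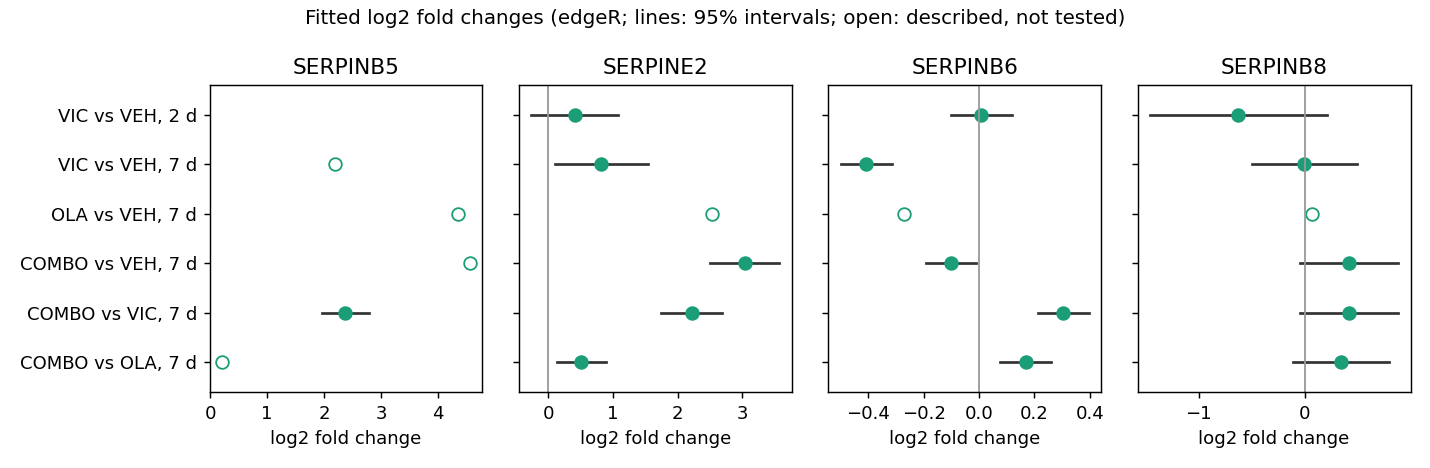
Fitted log2 fold changes (horizontal axes, one scale per gene) of the 4 members with enough counts, by comparison; filled points were tested and carry 95% intervals, open points are described only. In combination against VIC-1911, SERPINB5 and SERPINE2 sit at 2.37 and 2.22 and SERPINB6 at 0.30.

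At 2 days SERPINB5 was also higher under VIC-1911, on few counts. The vehicle libraries held 0.244, 0.286 and 0.282 FPKM from 3, 3 and 4 counts, and the VIC-1911 libraries 0.798, 0.684 and 0.481 FPKM from 19, 11 and 8 counts. The groups did not overlap, and the ratio of means was 2.42. All VIC-1911 libraries stood above all vehicle libraries for 14.5% of genes compared. SERPINB5 did not reach the minimum of 10 counts in 3 libraries and so was not tested in the fit at this time. With no filter on counts its log2 fold change was 1.28 (SE 0.49, 95% interval 0.31 to 2.24, adjusted p = 0.0833 by edgeR), which did not pass.

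SERPINE2 followed the same order of groups as SERPINB5, with a wider spread between libraries. At 7 days it was at 0.463, 0.462 and 0.409 FPKM in the vehicle libraries and 0.830, 0.694 and 0.936 in the VIC-1911 libraries. The olaparib libraries held 4.06, 1.88 and 2.82 FPKM and the combination libraries 4.64, 2.28 and 4.09. Every olaparib-containing library was above every vehicle library, and every combination library was above every VIC-1911 library. Replicate 1 was the highest and replicate 2 the lowest in both olaparib-containing groups, and these 2 groups overlapped. Olaparib libraries were all above vehicle for 31.9% of genes compared. Combination libraries were all above vehicle for 30.1% and all above VIC-1911 for 20.8%. Means were 0.445 ± 0.0311 FPKM (SD, n = 3) under vehicle, 0.820 ± 0.121 under VIC-1911, 2.92 ± 1.09 with olaparib and 3.67 ± 1.24 with both drugs.

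SERPINE2 rose under the combination against vehicle by a log2 fold change of 3.04 (SE 0.26, adjusted p = 3.61e-11, edgeR). As a description, the fitted olaparib difference was 2.53, rank 81 from the highest. Under VIC-1911 against vehicle it was 0.82 higher (SE 0.35, adjusted p = 0.0498, edgeR). All VIC-1911 libraries were above all vehicle libraries, as for 33.9% of genes compared. That call was lost with DESeq2 (adjusted p = 0.0731) and when vehicle replicate 1, 2 or 3 or VIC-1911 replicate 1 or 3 was left out (adjusted p from 0.0848 to 0.181). Between the combination and olaparib the difference was 0.51 (95% interval 0.13 to 0.90, adjusted p = 0.0776), and it passed without olaparib replicate 1 (adjusted p = 0.0206) or without combination replicate 2 (adjusted p = 0.00212). At 2 days SERPINE2 was at 0.844, 0.494 and 0.585 FPKM under vehicle and 0.862, 0.844 and 0.863 under VIC-1911, a log2 fold change of 0.41 with an interval of -0.26 to 1.08 (adjusted p = 0.459).

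SERPINB6 was the one abundant member, and at 7 days it was lower under VIC-1911 than in any other group. The vehicle libraries held 44.4, 44.7 and 46.2 FPKM and the VIC-1911 libraries 35.9, 33.9 and 35.5. The olaparib libraries held 36.5, 39.2 and 37.4 FPKM and the combination libraries 42.5, 42.1 and 41.6. The vehicle libraries were above all others, and the combination libraries were above those of either single drug. The order of the group means from lowest to highest was VIC-1911, olaparib, combination, vehicle. All libraries lay below all vehicle libraries for 25.4% of genes under VIC-1911, 26.9% with olaparib and 29.1% with both drugs. All combination libraries lay above all olaparib libraries for 11.1% and above all VIC-1911 libraries for 20.8%.

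SERPINB6 fell by 0.41 on the log2 scale under VIC-1911 (SE 0.05, adjusted p = 1.01e-08, edgeR), and as a description the fitted olaparib difference was -0.27. The combination was -0.10 from vehicle (adjusted p = 0.0506), which passed without vehicle replicate 1 (adjusted p = 0.0289) or without combination replicate 1 (adjusted p = 0.0405). Against olaparib the combination was 0.17 higher (SE 0.04, adjusted p = 0.0132), a call lost without olaparib replicate 3 (adjusted p = 0.0728). At 2 days vehicle held 37.2, 39.7 and 39.1 FPKM and VIC-1911 38.1, 39.3 and 39.0, overlapping groups with a log2 fold change of 0.01 and an interval of -0.10 to 0.12 (adjusted p = 0.952). The VIC-1911 effect at 7 days differed from that at 2 days by -0.43 (SE 0.07, adjusted p = 6.43e-06, edgeR interaction), where 28.8% of genes differed. The 2 time points came in separate tables with their own vehicle libraries, so time and table cannot be told apart.

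SERPINB8 was low and did not pass in any comparison tested. At 7 days it held 0.373, 0.547 and 0.449 FPKM under vehicle, 0.418, 0.510 and 0.489 under VIC-1911, 0.565, 0.513 and 0.452 with olaparib and 0.504, 0.594 and 0.770 with both drugs. Every pair of these groups overlapped, on 14 to 58 counts a library. VIC-1911 against vehicle gave 0.00 with an interval of -0.50 to 0.50, and combination against vehicle 0.42 with an interval of -0.04 to 0.88 (adjusted p = 0.116, edgeR). Its annotated span shares 11694 bases with HMSD on the same strand, and reads there could belong to either gene.

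SERPINB1 had at most 3 counts and SERPINB9 at most 1 count in any of the 18 libraries. No fold is given for either, since every library was at or under 3 counts. Their levels were at most 0.0811 and 0.0235 FPKM, and a change in them was not detectable at this depth.

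The remaining comparisons are counted over the members other than SERPINB5, since SERPINB5 was chosen with the vehicle and olaparib libraries. Under VIC-1911 at 7 days, SERPINE2 was higher and SERPINB6 lower of 3 members tested, where 26.6% of all genes were higher and 25.8% lower. Under the combination against vehicle, 1 was higher and 0 lower of 3, where 28.6% of genes were higher and 28% lower. Against olaparib, the combination had 1 higher and 0 lower of 3, where 4.55% of genes were higher and 6.95% lower. At 2 days, 0 of 3 members were called by edgeR, with 0 at an unadjusted p under 0.05, where 14.7% of genes changed, 7.5% higher and 7.19% lower. DESeq2 also called 0, but gave an adjusted p for SERPINB6 alone of the 3 (0.971).

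The members lie in clusters of serpin genes that were mostly near 0 in these libraries. SERPINB5 and SERPINB8 are the outermost of 10 clade B genes over 542.8 kb of chromosome 18. Of the 7 with counts listed, 5 had at most 3 counts in every library, leaving SERPINB5 and SERPINB8, and SERPINB2, SERPINB10 and SERPINB11 were listed at 0 FPKM throughout. In the cluster of 3 genes over 139.5 kb on chromosome 6, SERPINB6 was the one gene above 3 counts. Of the nearest genes with counts at 7 days upstream of SERPINB5, VPS4B, an ATPase of membrane trafficking 54.5 kb away, differed by 0.09 between combination and VIC-1911 (adjusted p = 0.153, edgeR). KDSR, a sphingolipid enzyme 109.8 kb away, differed by 0.08 (adjusted p = 0.292). BCL2, an inhibitor of apoptosis 156.9 kb away, fell by 1.06 (adjusted p = 0.0252) on at most 32 counts a library. On the other side, among genes with counts listed at 7 days, SERPINB12 and SERPINB3 had at most 1 count at 7 days, and SERPINB8, 465 kb away, did not pass. Of the 4 tested neighbors, 0 were called higher and BCL2 was called lower, where 20.7% of all genes were higher and 22.2% lower. These 4 genes are too few to set against those shares.

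Among 31 other serpin-family genes, 27 had counts listed, 15 of these at most 3 in every library, and 8 had enough counts to test at 7 days. Combination against VIC-1911 called 1 of the 8 higher and 1 lower, where 20.7% of all genes were higher and 22.2% lower. The median log2 fold change was 0.06 against 0.01 over all genes tested. SERPIND1, heparin cofactor II, was the one higher (log2 fold change 1.77, SE 0.25, adjusted p = 1.66e-06, edgeR). It also rose under VIC-1911 (1.88) and the combination (3.65) against vehicle, where the vehicle libraries held at most 8 counts. At 7 days a VIC-1911 library held at most 19 counts and a combination library at most 66. SERPIND1 met the count filter through the treated groups, where it was high, so its calls here are not independent evidence of a rise. SERPINI1, the neuronal serpin neuroserpin, was the one lower (-1.17, SE 0.23, adjusted p = 0.000158), and it fell by 0.70 and 1.87 against vehicle.

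SERPINA3, α1-antichymotrypsin, fell by 3.61 under VIC-1911 (adjusted p = 6.23e-10, edgeR) and by 2.83 under the combination. It had at most 72 counts in a vehicle library at 7 days, 6 in a VIC-1911 library and 10 in a combination library. SERPINA3 met the count filter mainly through the vehicle libraries, where it was high, so that p-value is not independent evidence of a fall. Its difference between combination and VIC-1911 was 0.78 (adjusted p = 0.221). SERPINF2, α2-antiplasmin, rose by 1.70 under the combination against vehicle (adjusted p = 0.0169, edgeR) on at most 16 counts a library. At 7 days it had at most 6 counts in a vehicle library and 7 in a VIC-1911 library. It met the count filter only through the olaparib-containing groups, so that p-value is not independent evidence of a rise. AGT, angiotensinogen, fell by 1.49 in the same comparison (adjusted p = 0.00088, edgeR) on at most 31 counts a library. Against vehicle, 1 of the 8 was higher and 3 lower under VIC-1911, where 26.6% of all genes were higher and 25.8% lower. Under the combination 2 were higher, SERPINF2 among them, and 4 lower, where 28.6% of all genes were higher and 28% lower.

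**Figure D3:**
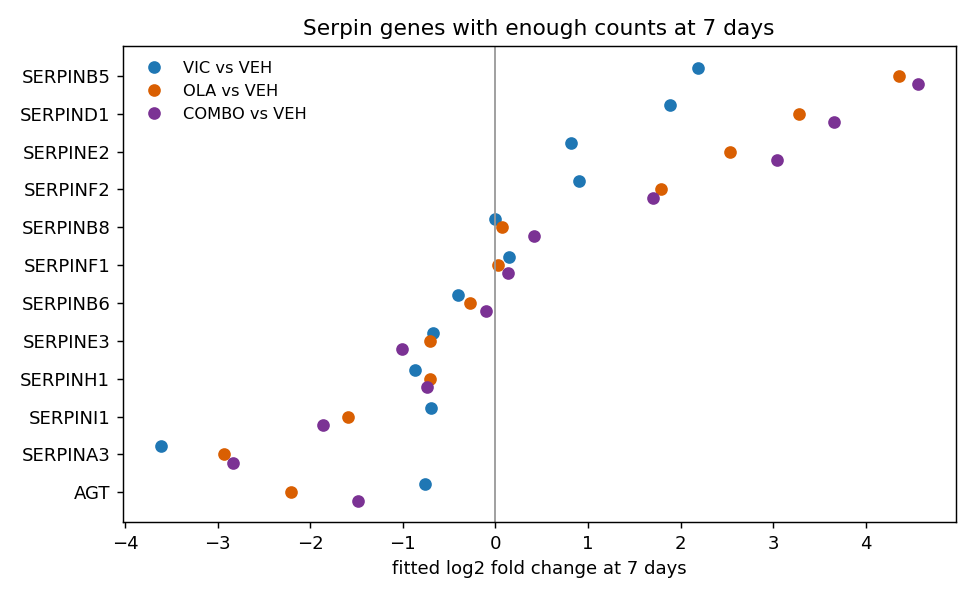
Fitted log2 fold change against vehicle at 7 days (horizontal axis) for the 4 members and 8 other serpin-family genes with enough counts; each point is 1 comparison, and all 3 share the vehicle libraries. SERPINB5, SERPIND1 and SERPINE2 lie to the right and SERPINA3, AGT and SERPINI1 to the left.

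Known p53 targets other than SERPINB5 moved mostly upward. In combination against VIC-1911, 31 of 37 tested were higher and 1 lower, where 20.7% of all genes were higher and 22.2% lower. The median log2 fold change was 0.67 against 0.01 over all genes. CDKN1A, the cyclin-dependent kinase inhibitor p21, rose by 1.47 (adjusted p = 6.93e-20), ZMAT3, an RNA-binding protein, by 1.48 and THBS1, thrombospondin-1, by 1.32. BTG2, an antiproliferative factor, rose by 1.20, and MDM2, the ubiquitin ligase that degrades p53, by 0.76. Under VIC-1911 against vehicle 28 of 37 were higher and 3 lower at 7 days (median 0.56), where 26.6% of all genes were higher and 25.8% lower. At 2 days 26 of 36 were higher and 1 lower (median 0.425), where 7.5% of all genes were higher and 7.19% lower. Combination against olaparib called 10 higher and 1 lower of 37, where 4.55% of all genes were higher and 6.95% lower. TRIM22, an antiviral ubiquitin ligase chosen after its values were seen, had the largest rise of the list in combination against VIC-1911. It rose by 2.36 (adjusted p = 2.83e-10, edgeR), beside 2.37 for SERPINB5 and 2.22 for SERPINE2. CDKN1A averaged 25.9 FPKM under vehicle and 258 under the combination.

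Proteases and receptors on which serpins act showed no such common direction in combination against VIC-1911. Of 16 tested, 3 were higher and 4 lower, with a median of 0.04, where 20.7% of all genes were higher and 22.2% lower. ST14 (matriptase) fell by 0.35, and KLK2, a prostate kallikrein, and TMPRSS2, a transmembrane protease, each fell by 0.22. LRP1, the endocytic receptor that clears serpin-protease complexes, rose by 0.31 and PRSS8 (prostasin) by 0.24. Against vehicle most were lower: 12 of 16 fell and 2 rose under VIC-1911, and 11 fell and 2 rose under the combination. Over all genes, 25.8% fell and 26.6% rose under VIC-1911, and 28% fell and 28.6% rose under the combination.

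Maspin is also known as a marker of basal and myoepithelial cells, so basal genes were counted. Of 9 tested in combination against VIC-1911, 4 were higher and 3 lower, with a median of 0.10. Of all genes, 20.7% were higher and 22.2% lower there. COL17A1, a hemidesmosomal collagen, rose by 3.52, LAMB3, a laminin chain, by 2.61 and KRT14, a basal keratin, by 1.38. EGFR fell by 0.55 and DST, a cytoskeletal linker, by 0.61. COL17A1 and LAMB3 stayed at means of 0.220 and 0.384 FPKM under the combination. In VIC-1911 libraries at 7 days they had at most 3 and 10 counts. COL17A1 met the count filter only through the olaparib-containing groups. KRT5, a defining basal keratin, was at 0 FPKM in every library. Of 12 luminal markers, 2 were higher and 6 lower in the same comparison. Of 4 immune and stromal markers tested, 2 were higher and 1 lower.

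The genes with the pattern most like SERPINB5 over the 12 libraries at 7 days were found by the root mean square difference of vehicle-centered log2 CPM (counts scaled to library size, prior count 2). Of 12106 genes with a median difference of 3.19, the nearest was LOC101927501 at 0.54, with means of 0.0643, 0.223, 2.2 and 3.01 FPKM under vehicle, VIC-1911, olaparib and the combination. ZNF812, a zinc finger gene, followed at 0.56 and TGFB2, a secreted TGF-β ligand, at 0.58. ID3, an inhibitor of basic helix-loop-helix factors, was at 0.60, and SSTR5, a somatostatin receptor, at 0.62. All 5 had mean FPKM in the order vehicle, VIC-1911, olaparib, combination, the order of SERPINB5, which their choice by likeness in these same libraries favors. ID3 was the most abundant of them, with means of 1.92, 6.40, 17.1 and 30.2 FPKM. CDKN1A was 9th in this list, and SERPINE2 38th at 1.33.

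**Figure D4:**
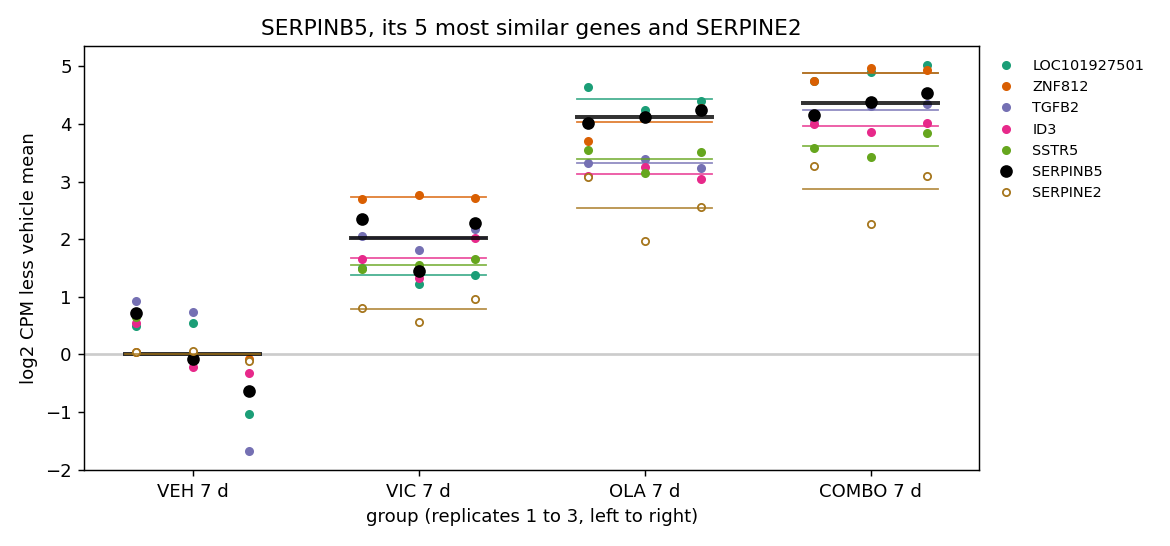
Log2 CPM less the vehicle mean of each gene (vertical axis) for SERPINB5, the 5 genes nearest to it and SERPINE2 in the 12 libraries at 7 days, by group; points are libraries and lines are group means. SERPINE2 runs below SERPINB5 in all 3 treated groups and at 1.33 is farther from it than the other 5, which were chosen as the nearest.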

How the data were processed

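Poly(A) RNA from 18 C4-2B samples was sequenced, 3 per group. The authors deposited gene counts and FPKM values for each time point, made from reads trimmed with Trimmomatic and aligned to hg38 with STAR (version 2.6.0 in the submitters' processing notes). The deposited counts are not normalized, and FPKM was made by the authors with their own script. The strand setting and the treatment of multiply mapped reads are not given in the sources used here. FPKM at 2 days rests on more reads than the deposited counts, so these scales were not converted into each other.

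Counts were tested with edgeR 4.0.16 (R 4.3.3; TMM scaling, quasi-likelihood test), in 1 fit of the 6 libraries at 2 days and 1 of the 12 at 7 days, keeping a gene if 3 or more of those libraries reached 10 counts (12241 and 14409 genes). A joint fit of 13832 genes gave the difference between times. P-values are two-sided and adjusted by Benjamini-Hochberg over all genes of a fit, and a gene was called at an adjusted p under 0.05. The spread between replicates was a biological coefficient of variation of 3.44% at 2 days and 4.43% at 7 days. No 2 libraries of a group agreed within sampling noise (chi-square over degrees of freedom from 1.26 to 5.52). The edgeR test was tried on simulated counts for VIC-1911 against vehicle at 2 days and combination against VIC-1911 at 7 days. The joint fit and the alternatives below were not. Alternatives used DESeq2 1.42.0, limma 3.58.1 on log2(FPKM + 0.1) and log2(FPKM + 1), RLE scaling, no filter, a replicate block, fold limits (2 at 7 days, 1.5 at 2 days) and leaving out each library.

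The members and gene lists were chosen with earlier results of these data known. Olaparib against vehicle was therefore not tested for the members, and SERPINB5 was tested only where no 7-day vehicle or olaparib library enters the contrast, although all 12 libraries set the spread of the fit. The genes named were the members, up to 5 genes of each list by adjusted p in combination against VIC-1911, other serpins past 2-fold, the 5 genes nearest to SERPINB5 in pattern and the nearest 3 genes on each side of it among those with counts listed at 7 days. From the luminal and the immune and stromal lists only counts are given, with PTPRC as an example. TRIM22, KRT5, TP63 and ID3's level were added after their values were seen. Positions and promoters are from RefSeq on GRCh38, and overlapping genes from GENCODE.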

Additional observations from a re-analysis of the deposited data

Results flagged for a closer look

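For SERPINB6, subtracting the 2-day effect of VIC-1911 from its 7-day effect gave -0.43 on the log2 scale (95% interval -0.58 to -0.28, adjusted p = 6.43e-06, edgeR interaction), a difference between the time points. The 2-day effect was 0.01 and the 7-day effect -0.41. The level in vehicle was 38.6 ± 1.29 FPKM (SD, n = 3) at 2 days and 45.1 ± 1.00 at 7 days, and in VIC-1911–treated cells 38.8 ± 0.624 and 35.1 ± 1.07. What set the vehicle levels of the separate tables apart was not tested.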

How the results depend on the processing

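Of 394 values recomputed under an alternative, 0 changed direction against a call. In combination against VIC-1911 every alternative run left SERPINB5, SERPINE2 and SERPINB6 called, except that a fold limit of 2 removes SERPINB6 by construction. Under VIC-1911 at 7 days the number of members higher was 1, and 0 with DESeq2, with limma on log2(FPKM + 0.1), with limma on log2(FPKM + 1) and with the fold limit of 2, and it ranged from 0 to 1 when single libraries were left out. The number lower there was 1, and 0 with the fold limit. Under the combination against vehicle the number lower was 0, and 1 (SERPINB6) with RLE scaling, with a range of 0 to 1 without single libraries. Between combination and olaparib the number higher was 1, 2 with no filter on counts, 0 with either limma fit and 0 with the fold limit, with a range of 0 to 2 without single libraries. The fitted difference of SERPINB5 between olaparib and vehicle was 4.35, against 3.64 on log2(FPKM + 0.1) and 1.60 on log2(FPKM + 1), scales that shrink changes of low genes by construction, and 4.08 to 4.96 without single libraries.

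Residuals of same-numbered libraries correlated from -0.04 to 0.14, over 0.1 in 2 of 21 pairs, and those of other pairs from -0.11 to 0.12. Pairs of replicate 2 libraries were all positive, from 0.02 to 0.14. Whether replicate numbers pair the samples was not tested. With the replicate block the combination had 2 members higher than olaparib, since SERPINE2 then passed (0.41, adjusted p = 0.0354, edgeR). Among values of single genes, 11 lost a call and 7 gained one, all in SERPINE2 or SERPINB6. The cause was not tested. Depth limits SERPINB1, SERPINB9 and, at 2 days, SERPINB5.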
